A study of Mus musculus with 2 samples.

Results

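*Cd74* and the genes of the MHC class II pathway were followed in OT-I T cells with and without forced expression of Eomes. The group held 7 genes, *Cd74*, *Ciita*, *H2-Aa*, *H2-Ab1*, *H2-Eb1*, *H2-DMa* and *H2-DMb1*, of 14732 gene symbols listed in at least 1 library. They were chosen by name, because *Cd74* had shown one of the lowest ratios between the same libraries, so the ratios given here describe the genes and test nothing. All cells were CD8+ T cells from spleen and lymph nodes of C57BL/6 mice aged 6 to 8 weeks that carry the OT-I transgene, a T cell receptor specific for an ovalbumin peptide. Both cultures were activated for 24 h with the peptide SIINFEKL at 2.5 ng/mL and with IL-2 at 10 U/mL, and were then transduced with the retroviral vector RVKM, which marks cells with human CD2 (hCD2). The vector was empty for the control (Ctrl) and carried Eomes for the Eomes-overexpressing cells (Eomes). At 48 h the hCD2+ cells were sorted, and 40000 cells per well received OVA peptide and IL-2 at the same doses for 3 days. Each condition was sequenced as 1 library, so differences between the cultures could not be set against a spread of replicates, and no test was made. Expression was driven by a retrovirus rather than by the gene's own promoter, and how many mice were pooled is not given in the sources used here.

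MHC class II molecules present peptides from endosomes to CD4+ T cells and are paired from an alpha and a beta chain. CD74, the invariant chain, holds newly made class II molecules and leads them to endosomes, where proteases trim it to a short peptide that H2-DM then removes. CIITA is the coactivator that switches these genes on together, through a complex of RFX, CREB and NF-Y on the X and Y boxes of their promoters. Dendritic cells, B cells and macrophages carry much class II, whereas mouse T cells are known for carrying little of their own.

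Levels are FPKM, the reads of a gene scaled to transcript length and library size. A comparison of levels between genes rests on the transcript lengths that the authors used, which are uncertain here. The smallest steps between low values, together with reference transcript lengths, placed the depth at about 19360000 reads for control and 19100000 for Eomes. Approximate reads and exact 95% intervals given below rest on these depths and on the shortest coding transcript of each gene. The intervals cover counting error only and compare 2 libraries, not the conditions, and they would change with the transcript length that the authors used. Ratios are log2 values of Eomes over control, and a gene was counted as expressed at an FPKM of at least 1 in at least 1 library. The forced gene itself, *Eomes*, had an FPKM of 2.47 in control and 129.64 in Eomes cells.

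Apart from the expression values, promoters of class II chains were searched for the letters of X and Y boxes. Promoter windows of RefSeq (build GRCm38.p6, the mm10 assembly) were matched for 4 of the 7 genes, *H2-Aa*, *H2-Eb1*, *H2-DMa* and *H2-DMb1*. The 200 bases before the start are printed 5′ to 3′ for *H2-Aa* (chr17:34287824-34288023, minus strand), *H2-Eb1* (chr17:34305667-34305866, plus strand) and *H2-DMb1* (chr17:34152991-34153190, plus strand), whose starts matched the annotated transcripts. *H2-DMb2* (chr17:34145049-34145248, plus strand) is shown beside *H2-DMb1* because both encode a beta chain of H2-DM and their ratios lay far apart. Capitals mark the Y box, searched as CTGATTGG or its core ATTGG on both strands, and the X box, searched by its name as a degenerate motif of 14 letters. The core lies inside the longer Y box.
H2-Aa: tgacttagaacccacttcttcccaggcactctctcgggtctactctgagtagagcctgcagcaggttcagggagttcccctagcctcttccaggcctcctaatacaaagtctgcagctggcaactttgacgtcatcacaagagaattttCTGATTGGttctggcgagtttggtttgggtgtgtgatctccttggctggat
H2-Eb1: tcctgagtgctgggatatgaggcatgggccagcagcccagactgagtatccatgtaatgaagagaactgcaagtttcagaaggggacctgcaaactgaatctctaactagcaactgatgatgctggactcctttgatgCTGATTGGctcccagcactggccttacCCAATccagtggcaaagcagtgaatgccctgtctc
H2-DMb1: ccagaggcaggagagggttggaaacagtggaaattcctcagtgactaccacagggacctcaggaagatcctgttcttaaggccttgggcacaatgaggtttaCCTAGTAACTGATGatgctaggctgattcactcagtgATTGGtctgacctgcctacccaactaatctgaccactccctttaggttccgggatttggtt
H2-DMb2: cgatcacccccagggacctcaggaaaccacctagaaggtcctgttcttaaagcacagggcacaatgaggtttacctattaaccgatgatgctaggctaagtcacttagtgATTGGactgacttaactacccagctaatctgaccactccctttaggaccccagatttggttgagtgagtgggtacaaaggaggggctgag

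The full Y box was found in 2 of 5 windows of the 4 genes (*H2-DMa* has 2 windows), those of *H2-Aa* and *H2-Eb1*, and in 3.52% of 32544 promoters. It began 51 bases before the start of *H2-Aa* and 62 bases before that of *H2-Eb1*. The core was in 4 of the 5 windows and in 29.3% of all promoters. For *H2-DMa* it was found only in the window whose start matched no annotated transcript and not in the window that matched. In *H2-DMb1* it began 61 bases before the start. The X box letters were found in the *H2-DMb1* window and in 0.744% of all promoters. Only exact matches were marked, so stretches close to these letters stay in lower case. A window without a match need not lack an X box. A T-box element, named for the family of factors to which Eomes belongs, was searched as GGTGTGA on both strands. It was in 0 of the 5 windows and in 2.64% of all promoters. At that share any 5 windows would mostly hold no match, so no conclusion is drawn from the 0. These are matches of letters in a reference sequence, and no binding was measured by them.

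*Cd74* had the highest level of the group in control and the lowest ratio. The gene spans 60803848 to 60812652 of chromosome 18 (mm10, as all positions here). Its FPKM was 20.21 in control and 4.82 in Eomes cells, a 4.19-fold lower level (log2 ratio -2.07). About 479 and 113 reads give an interval of -2.37 to -1.77. With the principal coding transcript of the annotation, which is longer, the reads would be about 552 and 130. Of 9562 genes with an FPKM of at least 1 in both libraries, *Cd74* had the lowest log2 ratio, which is the value it was chosen by. Among the 9925 expressed genes, which need that level in only 1 library, the lowest log2 ratio was -8.38. There a value not listed counts as 0.01. In a bulk library, fewer cells that carry a transcript and less of it per cell cannot be told apart.

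*H2-Ab1*, the beta chain of the classical I-A molecule, lies on chromosome 17 from 34257689 to 34269419. Its FPKM was 11.06 in control and 6.20 in Eomes cells, 1.78-fold lower (log2 ratio -0.84, interval -1.19 to -0.48, about 190 and 105 reads). *H2-Aa*, the alpha chain of the same molecule, lies on chromosome 17 from 34282744 to 34287823 and was nearly silent. Its FPKM was 0.14 in control and 0.10 in Eomes cells, which is about 2 reads in each library (log2 ratio -0.49, interval -3.77 to 3.81). *H2-Eb1*, the beta chain of I-E, lies on chromosome 17 from 34305867 to 34316674. Its FPKM was 0.46 in control and 0.18 in Eomes cells, about 15 and 6 reads, and its log2 ratio of -1.35 had an interval from -2.96 to 0.15.

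The partner chains of I-A were thus listed at very unequal levels, with *H2-Ab1* at 79 times the FPKM of *H2-Aa* in control and at 62 times in Eomes cells. No stretch of 50 bases in the transcript of either gene recurred in a transcript of another gene.

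The peptide editor H2-DM has an alpha chain, *H2-DMa*, and a beta chain that mice encode as *H2-DMb1* and *H2-DMb2*. *H2-DMa* lies on chromosome 17 from 34119541 to 34139101, and its FPKM was 10.56 in control and 5.71 in Eomes cells. That is 1.85-fold lower (log2 ratio -0.89, interval -1.22 to -0.56, about 227 and 121 reads). The annotation of *H2-DMa* overlaps 3094 bases of *Brd2* on the other strand, and the use of strand in the counting is not given in the sources used here. *Brd2*, named for this overlap after its values were seen, had an FPKM of 67.4 and 66.89.

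*H2-DMb1*, on chromosome 17 from 34153072 to 34160230, differed least within the group. Its FPKM was 1.44 in control and 1.24 in Eomes cells (log2 ratio -0.22, interval -0.94 to 0.48, about 39 and 33 reads). *H2-DMb2*, which is not of the 7 genes, had an FPKM of 6.37 in control and 2.12 in Eomes cells (log2 ratio -1.59). Of the 50-base stretches of *H2-DMb1*, 27.2% also occur in *H2-DMb2*, so reads of these stretches cannot be assigned to 1 of the pair and their separate levels are uncertain. The transcript length used by the authors for *H2-DMb2* is uncertain as well, and a shorter length gives a higher FPKM, so its level beside *H2-DMb1* and its weight in a sum of both are uncertain. With that limit, the summed FPKM of both beta chain genes was 7.81 in control and 3.36 in Eomes cells (log2 ratio -1.22).

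*Ciita*, the coactivator, lies on chromosome 16 from 10480059 to 10528418 and was listed at the bottom of the group. Its FPKM was 0.11 in control and 0.07 in Eomes cells (log2 ratio -0.65). With the shortest coding transcript that is about 3 and 2 reads (interval -4.15 to 2.56), and with the principal transcript, which is longer, about 13 and 8. *Dexi*, on the other strand, overlaps 25888 bases of the gene and had an FPKM of 14.08 and 11.15. A difference in *Ciita* was not detectable at this depth.

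**Figure D1:**
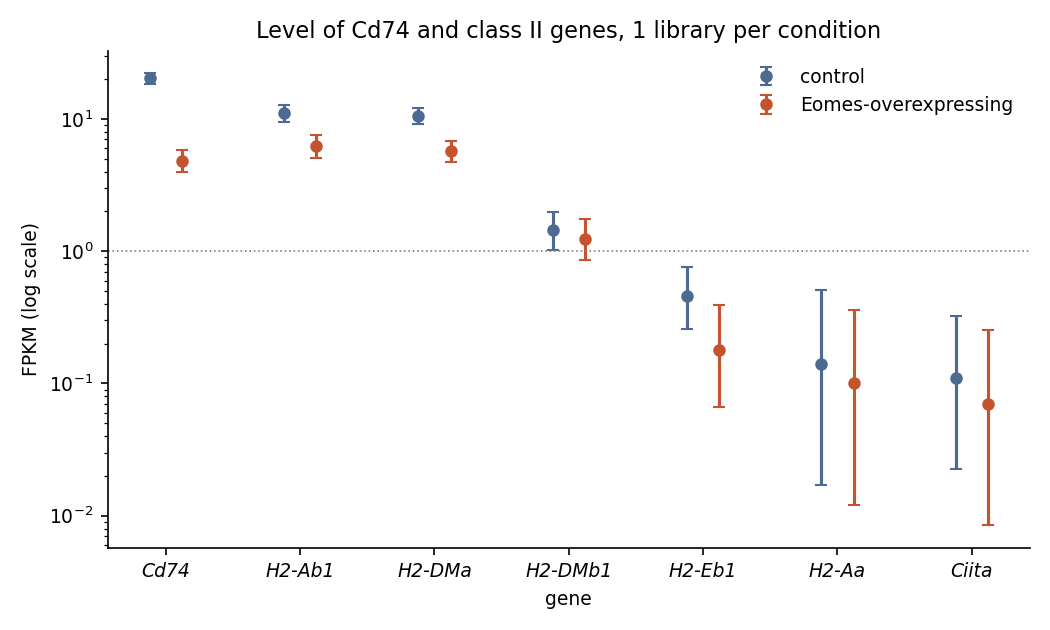
FPKM on a log axis (vertical) of the 7 genes (horizontal) in the control and the Eomes library, 1 point per library. Bars are exact 95% Poisson intervals of the approximate reads, which separate the libraries for *Cd74*, *H2-Ab1* and *H2-DMa* and overlap for the other 4 genes, and the dotted line marks an FPKM of 1.

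The order of levels differed between the libraries at its top. In control *Cd74* (interval 18.4 to 22.1) stood above *H2-Ab1* (9.54 to 12.7) and *H2-DMa* (9.23 to 12), which could not be told apart by counting error. In Eomes cells *H2-Ab1* (5.07 to 7.51), *H2-DMa* (4.74 to 6.82) and *Cd74* (3.97 to 5.79) overlapped one another. *H2-DMb1* followed in both libraries, and *H2-Eb1*, *H2-Aa* and *Ciita* came last with intervals that overlapped one another. The level of *Cd74* was 1.83 times that of *H2-Ab1* in control and 0.777 times in Eomes cells, a difference of -1.23 between the log2 ratios of the 2 genes. *H2-Ab1* and *H2-DMa* differed from each other by 0.05 in log2 ratio. *Cd74* made up 46.0% of the summed FPKM of the 7 genes in control and 26.3% in Eomes cells.

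All 7 genes had a lower FPKM in Eomes cells, and 5 of them were at least 1.5-fold lower, namely *Cd74*, *H2-Eb1*, *H2-DMa*, *H2-Ab1* and *Ciita*. Of the 9925 expressed genes, 5.19% were at least 1.5-fold lower and 2.46% at least 1.5-fold higher, and their median log2 ratio was -0.0037. Without a minimum level, which *Ciita* and *H2-Eb1* did not reach, 2088 of the 14732 listed symbols were at least 1.5-fold lower. Of the 7 genes 4 were expressed, 3 of them at least 1.5-fold lower, and *Ciita*, *H2-Aa* and *H2-Eb1* stayed under an FPKM of 1 in both libraries. By counting error with the shortest coding transcripts, only *Cd74* lay wholly past 1.5-fold lower, whereas the intervals of *H2-Ab1* and *H2-DMa* span that threshold. The longer principal transcript of *H2-DMa* would give about 339 and 181 reads and a narrower interval. Whether that interval spans the threshold thus depends on the length used. Among 3555 expressed genes with a mean FPKM from 5 to 20, the range that holds *Cd74*, *H2-Ab1* and *H2-DMa*, 3.54% were at least 1.5-fold lower. The central 95% of log2 ratios in that range ran from -0.69 to 0.50, and these 3 genes lay below it. Since the genes were picked for this contrast, the counts describe them and lend no support to a group effect.

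**Figure D2:**
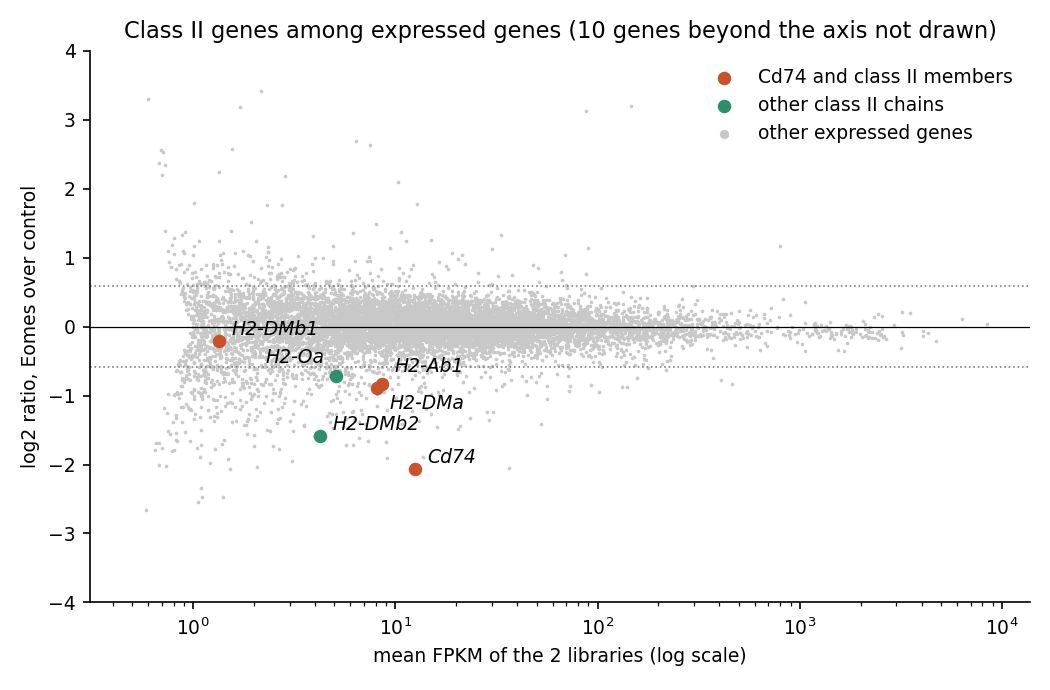
Log2 ratio of Eomes over control (vertical) against the mean FPKM of the 2 libraries on a log axis (horizontal), 1 point per expressed gene, with the 4 expressed genes of the group and 2 other class II chains in colour. Dotted lines mark 1.5-fold. *Cd74* lies at -2.07, *H2-Ab1* and *H2-DMa* lie side by side, and *H2-DMb1* lies within 1.5-fold. The 10 genes beyond a log2 ratio of 4 in either direction are not drawn.

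The 5 genes closest to *Cd74* in log2 ratio, among genes with an FPKM of at least 1 in both libraries, were *Igfbp7* (-2.06), *Pdzk1ip1* (-2.01), *Tm4sf5* (-1.95), *Ifi27l2a* (-1.91) and *Csf2* (-1.9). Likeness rests here on 1 ratio between 2 libraries. *Pdzk1ip1* was also close to *Cd74* in level, with an FPKM of 20.3 in control and 5.05 in Eomes cells. They lie on chromosomes 4, 5, 11 and 12, away from *Cd74* and from the class II chains.

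Of the other class II chains, a list of 6 symbols, 4 were listed and 2 were expressed. *H2-Oa*, the alpha chain of H2-DO, an inhibitor of H2-DM, had an FPKM of 6.35 in control and 3.88 in Eomes cells (log2 ratio -0.71, interval -1.12 to -0.30). *H2-DMb2* is given above, and both expressed chains were thus at least 1.5-fold lower, though the interval of *H2-Oa* spans 1.5-fold. Over all expressed genes the share was 5.19%, beside which the counts of this and the later lists are to be read. *H2-Ob*, the beta chain of H2-DO, was listed only in Eomes cells, at an FPKM of 0.02, about 1 read. *H2-Eb2* had an FPKM of 0.02 and 0.01, about 1 read each. *H2-Ea* and *H2-Ea-ps* were not listed in either library, and C57BL/6 mice are known to lack a working I-E alpha gene.

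The class II chains lie next to genes of the class I pathway on chromosome 17, and the ratios of the neighbours were set beside theirs. The stretch from *H2-K1* to *Btnl2* (33996017 to 34369495, 373.5 kb) was chosen after the values were seen. It holds 15 expressed genes, of which 5 encode class II chains. Of these 5, 4 were at least 1.5-fold lower, against 5.19% of all expressed genes. The log2 ratios of the 5 ran from -1.59 (*H2-DMb2*) to -0.22 (*H2-DMb1*), a pair whose separate levels are uncertain. With the shortest coding transcripts, the intervals of *H2-Oa*, *H2-DMa* and *H2-Ab1* span 1.5-fold. Of the 10 others 0 were past 1.5-fold, and their log2 ratios ran from -0.29 to 0.00. *Psmb9*, *Tap1*, *Psmb8* and *Tap2*, a block of class I genes between *H2-DMb1* and *H2-Ab1*, had log2 ratios of -0.25, -0.26, -0.04 and -0.14.

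**Figure D3:**
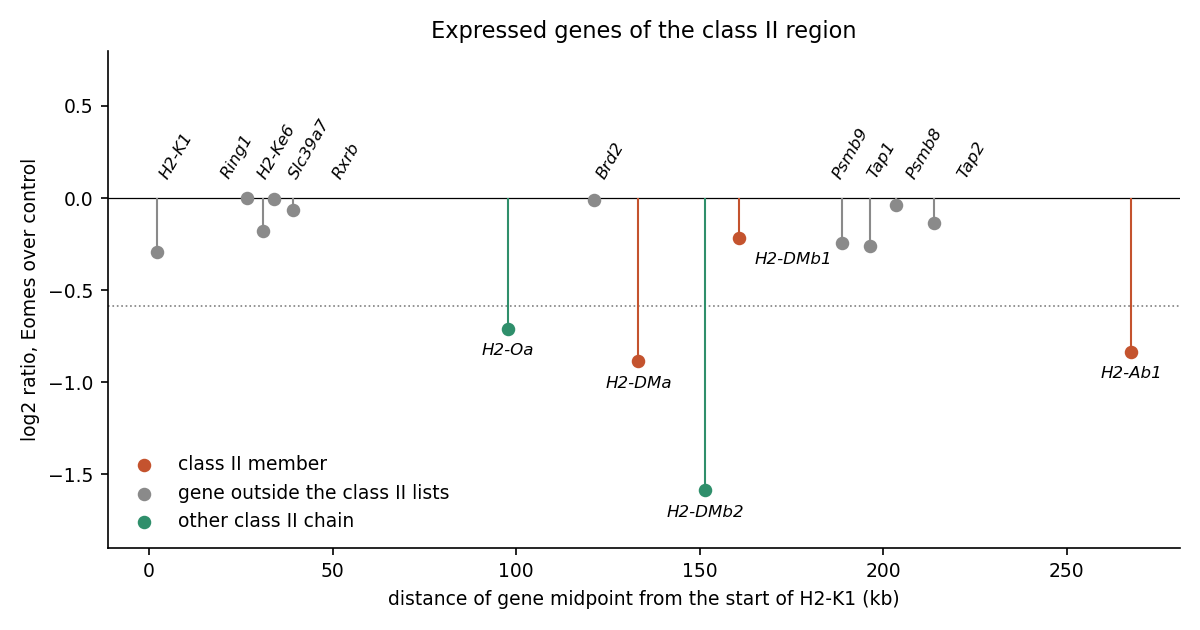
Log2 ratio of Eomes over control (vertical) of the 15 expressed genes against the distance of their midpoint from the start of *H2-K1* in kb (horizontal), 1 point per gene. The dotted line marks 1.5-fold lower. *H2-Oa*, *H2-DMa*, *H2-DMb2* and *H2-Ab1* lie below it, whereas *Psmb9*, *Tap1*, *Psmb8* and *Tap2* between *H2-DMb1* and *H2-Ab1* run from -0.26 to -0.04.

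Regulators of class II promoters were compared next. Of 7 X and Y box factors 0 were past 1.5-fold in either direction, and the median log2 ratio was 0.07, against -0.0037 over all expressed genes. *Rfx5*, the DNA-binding subunit of RFX, had an FPKM of 5.07 in control and 5.40 in Eomes cells. *Nfyc*, a subunit of NF-Y with the highest level of the list, had 27.18 and 28.61. A list of 10 genes on the path from interferon gamma to *Ciita* also held inhibitors of it, *Socs1* and *Prdm1*. Of these 10 genes, 2 were at least 1.5-fold lower and 0 higher (median -0.04). *Irf1*, a factor that acts on a *Ciita* promoter, had an FPKM of 21.57 in control and 14.06 in Eomes cells (log2 ratio -0.62). Its interval of -0.77 to -0.46, from about 864 and 556 reads, spans 1.5-fold. *Ifngr2*, a chain of the interferon gamma receptor, had a low FPKM of 1.14 and 0.63 (log2 ratio -0.86), and *Ifng* itself had the highest level, with 1342.7 and 1357.0.

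Of 9 genes for enzymes that process antigen or the invariant chain, 8 were expressed, and 1 was at least 1.5-fold lower and 0 higher (median log2 ratio -0.15). That gene was *Ctss*, which encodes cathepsin S, the protease known for the last cuts of CD74. Its FPKM was 17.11 in control and 9.20 in Eomes cells (log2 ratio -0.90, interval -1.13 to -0.67, about 449 and 238 reads). *Ctsd*, with the highest level of the list, had 235.36 and 277.36. *Sppl2a*, the membrane protease that clears the remnant of CD74, had 11.01 and 12.95. The ubiquitin ligases *March1* and *March8* could not be read, because such symbols had been turned into dates in both files.

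CD74 also serves at the cell surface as a receptor for the cytokine MIF, together with CD44 and chemokine receptors. Of 5 genes of this axis 0 were past 1.5-fold higher and 1 was past 1.5-fold lower, and the median was -0.38 on the log2 scale. *Cxcr4*, a chemokine receptor that pairs with CD74, had an FPKM of 13.58 in control and 6.63 in Eomes cells (log2 ratio -1.03, interval -1.27 to -0.80). *Mif* had the highest level, with 1312.57 and 1180.03, and *Cd44* had 26.18 and 20.17.

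Among 4 surface genes of antigen-presenting cells, 2 were expressed and both were at least 1.5-fold lower, against 5.19% of all expressed genes. *Cd83*, which is known to hold class II at the surface against ubiquitination, had an FPKM of 2.35 in control and 0.62 in Eomes cells (log2 ratio -1.92, about 113 and 29 reads). *Cd80*, a ligand of CD28, had 43.8 and 28.63 (log2 ratio -0.61, interval -0.80 to -0.43), and scaling to TPM took it to -0.58, within 1.5-fold. *Cd40* and *Cd86* stayed under an FPKM of 0.15 in both libraries.

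In the class I pathway 14 of 14 genes were expressed and 0 were past 1.5-fold, with log2 ratios from -0.29 to 0.37 and a median of -0.07. *Calr*, the chaperone with the highest level, had an FPKM of 917.68 in control and 914.01 in Eomes cells. *B2m* had 620.5 and 620.07, and *Nlrc5*, the class I counterpart of *Ciita*, had 15.53 and 14.8. *Nlrc5* was thus far above the FPKM of *Ciita* in both libraries.

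**Figure D4:**
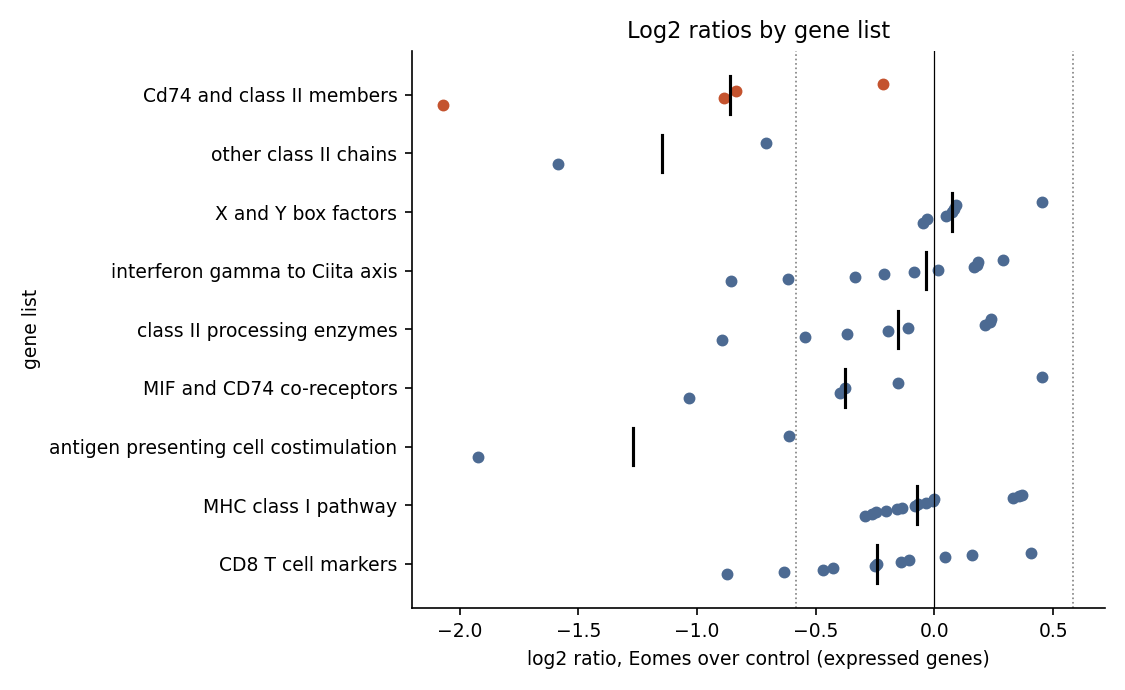
Log2 ratio of Eomes over control (horizontal) of the expressed genes of each list (vertical), 1 point per gene, with the median of each list as a black bar and dotted lines at 1.5-fold. The expressed genes of the class II lists and the 2 costimulation genes lie past 1.5-fold lower, except *H2-DMb1*. X and Y box factors and class I genes lie within 1.5-fold, on both sides of 0. The median of every list but that of X and Y box factors lies to the left of 0.

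The labelled cell type was checked against its markers. All 11 CD8 T cell markers were expressed, from *Runx3* with an FPKM of 54.41 in control to *Gzmb* with 8306.38, and the median log2 ratio was -0.24. *Cd8a* was 1.83-fold and *Cd2* 1.55-fold lower in Eomes cells, the other 9 were within 1.5-fold, and *Cd4* had an FPKM of 0.03 and 0.08. *Zbtb7b*, the highest of 4 CD4 T cell markers, had 13.79 in control and 11.61 in Eomes cells.

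Before culture the CD8+ cells had been purified with magnetic beads against CD8, and the hCD2+ sort followed transduction, so other cell types had passed through both steps if present. Markers of cells that carry much class II are given beside the class II values. Of 12 B cell markers, 8 were listed in at least 1 library, while *Ms4a1*, *Pax5*, *Blnk* and *Fcrla* were in neither. The summed FPKM of the B cell list was 3.83 in control and 2.06 in Eomes cells, of which *Cd79b* made up 2.79 and 1.56, and the rest summed to 1.04 and 0.50. The B cell list was thus lower in Eomes cells along with the class II genes, and its part in their values was not tested.

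Of 10 dendritic cell markers, *Clec9a* and *Cd209a* were in neither library. The list summed to an FPKM of 2.94 in control and 2 in Eomes cells, led by *Xcr1* with 1.79 and 1.11, and without *Xcr1* it summed to 1.15 and 0.89. *Itgax*, which encodes CD11c, had 0.17 and 0.18. Of 13 macrophage and monocyte markers, 9 were in neither library, among them *Lyz2*, *Csf1r*, *Adgre1* and *Spi1*. This list summed to 4.10 in control and 5.90 in Eomes cells, led by *Cd68* with 2.68 and 4.59. The part of these cells in the class II values was not tested either.

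**Figure D5:**
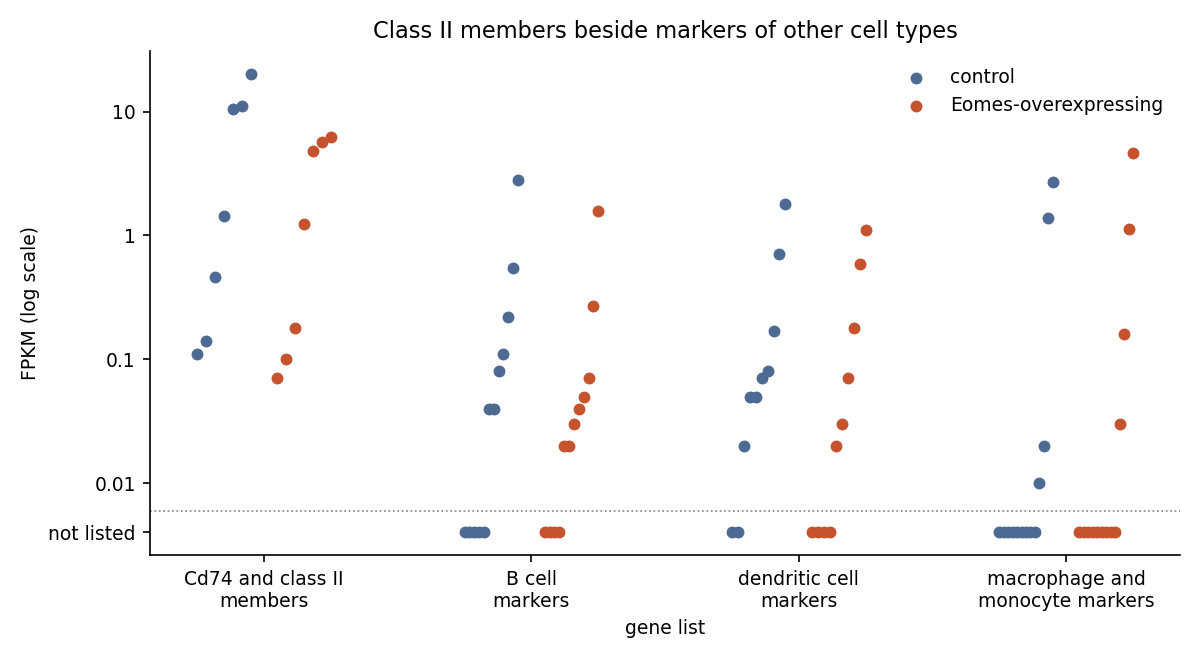
FPKM on a log axis (vertical) of the 7 genes and of the markers of 3 other cell types (horizontal), 1 point per gene and library, sorted by level. Genes not listed in a library are drawn below the dotted line. *Cd74*, *H2-Ab1* and *H2-DMa* lie above the B cell and dendritic cell markers in both libraries, and most macrophage markers are not listed.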

How the data were processed

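Total RNA came from 1 control and 1 Eomes culture. Per the authors, HiSeq reads were filtered with SOAPnuke, mapped to mm10 with HISAT (HISAT2 in the submitters' processing notes) and Bowtie2 and quantified with RSEM, and the versions and the gene annotation are not given in the sources used here. The authors deposited FPKM values (named RPKM in their methods), 1 per symbol, with 2 decimals and listed from 0.01 upward. Symbols turned into dates (20 in control, 19 in Eomes) were left out, and values not listed were set to 0.01 for counts over all genes.

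Log2 ratios and intervals used scipy 1.17.1, pandas 2.3.3 and numpy 2.4.6 under Python 3.11.15, and matplotlib 3.10.9 drew the plots. With 1 library per condition no test was made. Depth is the number of reads at which FPKM times length came closest to whole reads, over 173 and 191 genes of low level with 1 coding transcript of GENCODE M21 (72.8% and 73.3% within 0.2 of a whole read). Depths that scored within 5% of the best ran from 18700000 to 19980000 reads for control and from 18660000 to 19540000 for Eomes. The steps were tested on simulated data. Intervals are Clopper-Pearson for ratios and exact Poisson for levels. Named genes are the 7 genes, the other class II chains, genes of each list past 1.5-fold and its highest, and the 5 closest to *Cd74*. Other genes were named as examples after their values were seen. Genes and lists were chosen with earlier results of these data known. Alternatives were pseudocounts, scalings, centring by GC content, other minimum levels and a 2-fold threshold.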

Additional observations from a re-analysis of the deposited data

How the results depend on the processing

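The log2 ratio of *Cd74* ran from -2.07 to -1.87 over 6 alternatives of pseudocount, scaling and centring. These settings could not turn the sign of any of the 7 genes, because they shift ratios by little or shrink them toward 0. With a pseudocount of 1, 3 of the 7 genes and 285 of the expressed genes were at least 1.5-fold lower. With an FPKM of at least 5 in 1 library the counts were 3 and 213. Only *Cd74*, *H2-Ab1* and *H2-DMa* of the 7 genes reached that level. With a 2-fold threshold 2 of the 7 genes were lower, *Cd74* and *H2-Eb1*, and 180 of the 9925 expressed genes. *H2-Eb1* is not among the expressed genes, so the counts of 2 and 180 come from unlike sets. Without a minimum level 2088 genes were at least 1.5-fold lower. Centring by GC content took *Ciita* within 1.5-fold, and a pseudocount of 1 took *Ciita* to -0.05 and *H2-Eb1* to -0.31. Library scaling moved the median of the expressed genes by less than 0.1. No paired analysis was possible because the conditions share only 1 replicate number. Of the other class II chains and pathway genes, 8 were at least 1.5-fold lower, 7 with TPM scaling (without *Cd80*) and 6 with a pseudocount of 1 (without *Ifngr2* and *Irf1*). Depth limits *Ciita*, *H2-Aa*, *H2-Eb1* and *H2-DMb1*, whose intervals include 0.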
